A study of Mus musculus with 10 samples.

Results

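The miR-9 and miR-124 families were followed in small RNA from mouse sperm as 6 hairpins, mmu-mir-9-1, mmu-mir-9-2, mmu-mir-9-3, mmu-mir-124a-1, mmu-mir-124a-2 and mmu-mir-124a-3, out of 1136 miRNA hairpins with reads in any library. Of these, 3 were found under exactly these names, and the 3 miR-124 hairpins were listed as mmu-mir-124-1, mmu-mir-124-2 and mmu-mir-124-3. Both families were selected on their values in these same libraries, so the difference between the diet groups is given for them as a description, without a test. Reads of the 3 copies of a family were added, and a level is given in RPM, reads per 1000000 clean reads, which are all reads of a library after trimming.

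Male C57BL/6J mice were given a control diet (group CD-F0, 10% of energy from fat) or a high-fat diet (group HFD-F0, 42% of energy from fat) from 4 weeks of age for 10 weeks. Mature sperm were then taken from the tail of the epididymis and the vas deferens of these F0 males, and their small RNA was sequenced in 5 samples per group. Apart from the diet, no allele, strain or agent distinguished the groups in the labels. The labels do not say whether each sample came from 1 mouse, so the spread between samples, and any p-value that rests on it, may be partly technical.

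miRNAs are short RNAs that pair with messenger RNAs, mainly through the seed near their 5′ end, and lower the output of those messages. miR-9 is known from neural progenitors and neurons, where both arms of its hairpin are used and take part in the timing of neuron formation. miR-124 is among the most abundant miRNAs of mature neurons and is known for holding down genes that are not neuronal. In both families, 3 separate genes give rise to the same mature RNA.

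The mature miR-9 sequences are shown because they are what the counted reads come from, and because the copies share them, which is why their reads were summed. RefSeq (GRCm38.p6) held them for 3 of the 6 members, the Mir9 genes. Capitals mark the seed, bases 2 to 8 from the 5′ end.
mmu-miR-9-5p: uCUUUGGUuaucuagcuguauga
mmu-miR-9-3p: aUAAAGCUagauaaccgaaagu
Among 1679 mature mouse miRNA names in that table, 0 others had either of these seeds. The hairpins mmu-mir-124a-1, mmu-mir-124a-2 and mmu-mir-124a-3 are named only.

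The next 6 sequences show how far a read must extend past the end of a mature arm before those bases can tell the Mir9 copies apart. Each is a mature arm with the 6 hairpin bases that follow it, and capitals mark following bases that are not the same in all 3 copies.
Mir9-1, 5p arm: ucuuugguuaucuagcuguaugagugGUG
Mir9-2, 5p arm: ucuuugguuaucuagcuguaugagugUAU
Mir9-3, 5p arm: ucuuugguuaucuagcuguaugagugCCA
Mir9-1, 3p arm: auaaagcuagauaaccgaaaguaAaaaU
Mir9-2, 3p arm: auaaagcuagauaaccgaaaguaAaaaC
Mir9-3, 3p arm: auaaagcuagauaaccgaaaguaGaaaU
The copies shared the first 3 bases after the 5p arm and the first 1 after the 3p arm. A read that both starts and ends within the mature arm is therefore the same for all copies. The base just before the 5p arm was A in Mir9-1 and Mir9-2 and C in Mir9-3, and that before the 3p arm was C in each copy.

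The 6 hairpins lie at separate loci in the GENCODE M21 annotation of GRCm38, all on the plus strand. Mir9-1 (chr3:88215598-88215686) lies in an intron of the long intergenic RNA Gm3764 and overlaps an annotated miRNA, Gm25641, on the opposite strand. Mir9-2 (chr13:83738814-83738885) overlaps an exon of C130071C03Rik. Mir9-3 (chr7:79505264-79505353) lies in an intron of Mir9-3hg. The miR-124 hairpins each overlap an exon of a long intergenic RNA. Mir124a-1 (chr14:64590657-64590741) lies in Mir124a-1hg, Mir124a-2 (chr3:17795662-17795770) in Mir124-2hg and Mir124a-3 (chr2:180894040-180894107) in Gm27032.

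The libraries held 29558751 to 32178088 clean reads. Between 64.9% and 75.2% of the clean reads matched the genome in CD-F0 and between 73.3% and 74.7% in HFD-F0, and miRNAs took 15.4% to 18.2% in CD-F0 and 14.5% to 23.5% in HFD-F0. A list of 6 miRNAs taken as markers of testis and sperm, among them miR-34c and miR-449a, summed to 16881 to 18597 RPM in CD-F0 and 15064 to 24413 RPM in HFD-F0. The 6 muscle miRNAs listed further below summed to 21357 to 29629 RPM in CD-F0 and 15887 to 36749 RPM in HFD-F0. These sums therefore do not by themselves establish the labelled cell type. One library stood apart in both families, CD-F0 replicate 4, and the family levels, fold changes, likeness and edgeR results of the brain-enriched list below are given with and without it. That library held 31482557 clean reads, of which 69.2% matched the genome and 15.4% were miRNA, the lowest miRNA share of the 5 CD-F0 libraries.

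miR-9 reads were present in every library. In CD-F0, replicates 1 to 5 held 1880, 2702, 3238, 20756 and 2131 miR-9 reads, which correspond to 61.8, 85.5, 104, 659 and 68.1 RPM. In HFD-F0, replicates 1 to 5 held 2779, 2373, 2708, 2224 and 2432 reads, or 86.8, 74.1, 84.2, 69.6 and 82.3 RPM. The 5 HFD-F0 libraries lay inside the range of the CD-F0 libraries. CD-F0 replicate 4 was 6.32-fold above the next library, CD-F0 replicate 3, whereas the other 9 libraries spanned 1.69-fold from the lowest to the highest.

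miR-124 showed the same library at the top. In CD-F0, replicates 1 to 5 held 1699, 2303, 1778, 11041 and 1844 miR-124 reads, which correspond to 55.8, 72.9, 57.3, 351 and 58.9 RPM. In HFD-F0, replicates 1 to 5 held 2669, 1334, 1824, 1411 and 2108 reads, or 83.4, 41.6, 56.7, 44.2 and 71.3 RPM. CD-F0 replicate 4 was 4.21-fold above the next library, HFD-F0 replicate 1, and the other 9 libraries spanned 2.0-fold. The remaining CD-F0 values lay within the HFD-F0 range.

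**Figure D1:**
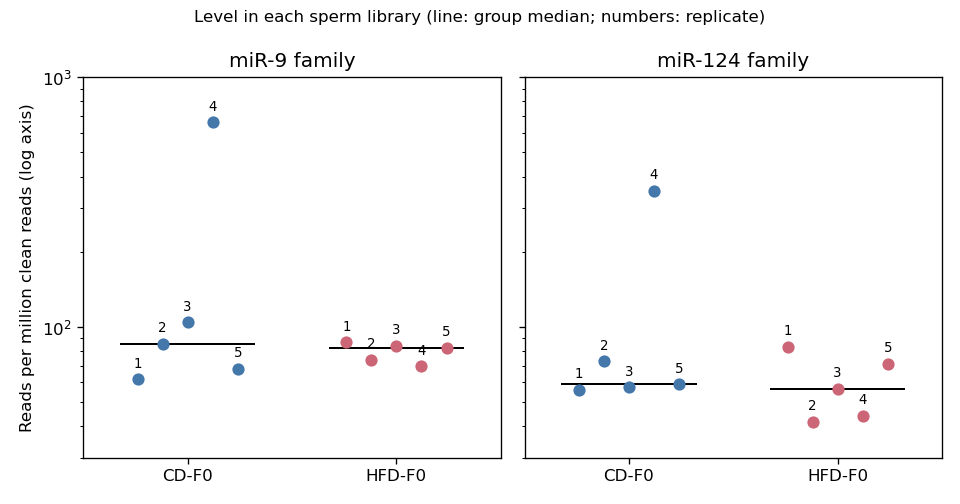
Level of the miR-9 family (left) and the miR-124 family (right) in each of the 10 sperm libraries, in RPM on a log axis. Each point is a library, numbered by replicate, and the line is the group median; CD-F0 replicate 4 lies at 659 RPM for miR-9 and 351 RPM for miR-124, and every other library lies between 41.6 and 104 RPM.

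Read numbers were high enough that counting error was small beside the spread between libraries. The Wilson 95% interval, which covers counting error only, was 650 to 668 RPM for miR-9 in CD-F0 replicate 4 and 39.5 to 43.9 RPM for miR-124 in HFD-F0 replicate 2, the lowest value of either family. In the order of miR-9 levels, the intervals of the neighbours CD-F0 replicate 2 (82.4 to 88.8 RPM) and HFD-F0 replicate 1 (83.7 to 90.1 RPM) overlapped, and that of CD-F0 replicate 3 (100.9 to 108 RPM) lay above both. All member reads were on the genome-matched side of the files, and 0 were listed as unmatched.

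As shares of miRNA reads instead of all clean reads, the picture was alike. miR-9 made up 0.429% of the miRNA reads of CD-F0 replicate 4 and 0.0360% to 0.0572% of those of the other 9 libraries. For miR-124 the share was 0.228% in CD-F0 replicate 4 and 0.0219% to 0.0492% in the others.

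The mean miR-9 level was 196 ± 260 RPM in CD-F0 (SD, n = 5) and 79.4 ± 7.26 RPM in HFD-F0 (SD, n = 5), a ratio of HFD-F0 to CD-F0 of 0.405. Without CD-F0 replicate 4 the CD-F0 mean was 79.9 ± 19.1 RPM (SD, n = 4) and the ratio 0.993. The SD of CD-F0 was above its mean, and the ratio of the group medians over all 10 libraries was 0.962. In a whole sperm preparation, fewer cells that carry an RNA and less of that RNA per cell cannot be told apart.

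The mean miR-124 level was 119 ± 130 RPM in CD-F0 (SD, n = 5) and 59.4 ± 17.8 RPM in HFD-F0 (SD, n = 5), a ratio of 0.499. Leaving out CD-F0 replicate 4 gave a CD-F0 mean of 61.2 ± 7.88 RPM (SD, n = 4) and a ratio of 0.971. That library alone held 67.6% of all CD-F0 reads of miR-9 and 59.2% of those of miR-124.

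In the edgeR fit over all small RNA features, the log2 fold change of HFD-F0 over CD-F0 was -1.42 (SE 0.61) for miR-9 and -1.13 (SE 0.52) for miR-124. Both family sums were among the 11 of 738 features called lower in HFD-F0 at an unadjusted p of at most 0.05 and a log2 change of at least 1 (1.49% of features), and nothing is read from that, since the families were selected on this contrast. Without CD-F0 replicate 4 the log2 fold changes were -0.066 (SE 0.19) for miR-9 and -0.11 (SE 0.21) for miR-124. Neither family was then among the 5 of 751 features called lower (0.666%).

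Leaving out any single library other than CD-F0 replicate 4 kept the log2 fold change of miR-9 between -1.64 and -1.38 and that of miR-124 between -1.31 and -1.04. With the replicate number of the labels as a block, the values were -0.56 for miR-9 and -0.58 for miR-124, both short of the log2 threshold of 1. Of the 11 features called lower, 5 were more than 2-fold higher in CD-F0 replicate 4 than in any other library, namely miR-9, miR-124, mmu-mir-341, mmu-mir-383 and mmu-mir-384, and 4 of the 11 (mmu-mir-302b, mmu-mir-1668, mmu-mir-3106 and mmu-mir-7689, named with mmu-mir-341, mmu-mir-383 and mmu-mir-384 after their values were seen) were still called without that library.

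**Figure D2:**
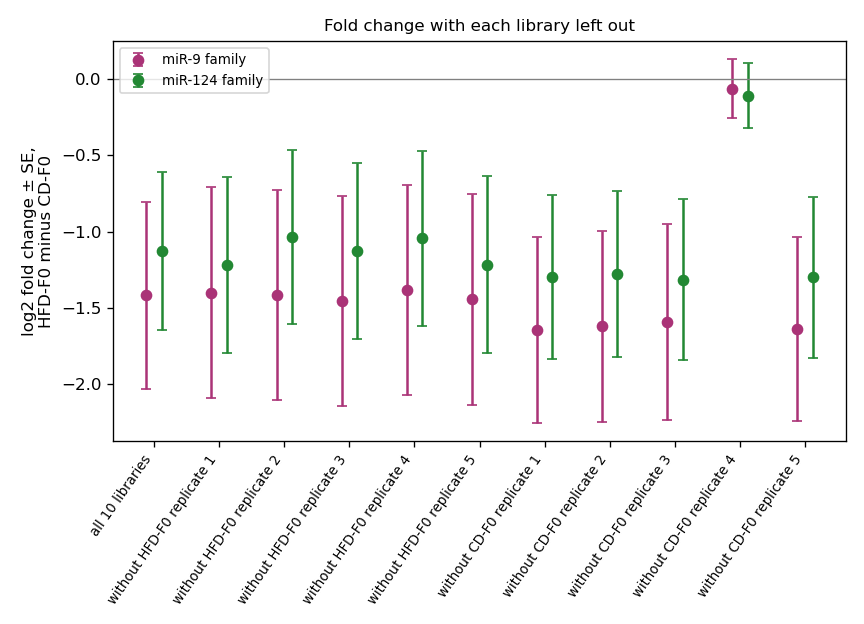
log2 fold change of HFD-F0 over CD-F0 from the edgeR fit for the miR-9 and miR-124 families, with all 10 libraries and with each library left out in turn; points are estimates and bars are ± SE. Both estimates lie between -1.64 and -1.04 except without CD-F0 replicate 4, where they are -0.066 and -0.11.

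The 3 copies of each family carried nearly the same number of reads in every library, since the files divide a read equally among the hairpins it matches. The equal part made up 99.1% to 100% of the miR-9 reads and 99.8% to 100% of the miR-124 reads. The level of each copy is therefore not a measurement of its own gene. In CD-F0 replicate 4 the 3 miR-9 hairpins had 219.6, 219.6 and 220.1 RPM, and each miR-124 hairpin had 117 RPM.

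The small remainder was counted for 1 copy only, and nearly all of it fell on mmu-mir-9-3. This copy had 112 reads beyond the equal part over 8 libraries, with 0 to 21 reads per library and a median of 11. By contrast, mmu-mir-9-1 had 1 such read in all and mmu-mir-9-2 had 0. In CD-F0 replicate 4 mmu-mir-9-3 had 17 of them, within the range of the other 9 libraries, although the shared miR-9 reads were highest there. For miR-124, mmu-mir-124a-1 had 4 extra reads in all, mmu-mir-124a-2 had 8 and mmu-mir-124a-3 had 0. The files do not give read lengths or arms for these counts, so which bases set the copies apart was not tested.

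The ratio of the 2 families to each other varied between libraries about as much as either family did among the 9 libraries other than CD-F0 replicate 4. miR-9 reads were 1.11, 1.17, 1.82, 1.88 and 1.16 times miR-124 reads in CD-F0 replicates 1 to 5, and 1.04, 1.78, 1.48, 1.58 and 1.15 times in HFD-F0 replicates 1 to 5. The ratio of CD-F0 replicate 4, 1.88, was the highest of the 10 and close to that of CD-F0 replicate 3, 1.82. Its mean was 1.43 ± 0.388 in CD-F0 and 1.41 ± 0.305 in HFD-F0 (SD, n = 5 each), and 1.31 ± 0.339 in CD-F0 without replicate 4 (SD, n = 4).

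CD-F0 replicate 4 was then compared with the other libraries across miRNAs. Over the 453 miRNA features that passed the filter, 17 (3.75%) were more than 2-fold higher in CD-F0 replicate 4 than in every other library, and the other 9 libraries had 0 to 2 such features each. Ranked by the fold over the median of the other 9 libraries, miR-9 was at position 5 of 453 with 8.01-fold and miR-124 at position 8 with 6.12-fold. CD-F0 replicate 4 was the highest library for 47 of the 453 features in all, while HFD-F0 replicate 1 was the highest for 161.

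In absolute level, miR-9 and miR-124 were the most abundant of these 17. mmu-mir-132 followed at 147 RPM against a median of 50.1 RPM in the other 9 libraries, and then mmu-mir-138 at 79.7 RPM against 16.3 RPM. Other features of the 17, named after their values were seen, were mmu-mir-384, 10.1-fold above the next library with 25.3 RPM, mmu-mir-383, 5.61-fold above it with 13.5 RPM, and mmu-mir-341, 2.76-fold above it with 62.6 RPM. mmu-mir-487b, also of the 17, was 3.72-fold above the next library. Further ones outside the brain-enriched list, also named after their values were seen, were mmu-mir-215 (3.45-fold above the next library), mmu-mir-344, mmu-mir-412, mmu-mir-433, mmu-mir-592 and mmu-mir-668.

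**Figure D3:**
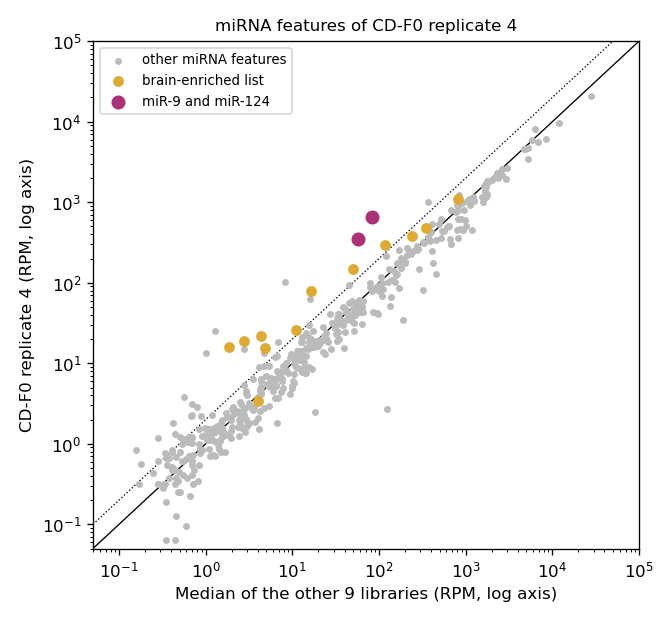
Level of 453 miRNA features in CD-F0 replicate 4 (vertical, RPM, log axis) against the median of the other 9 libraries (horizontal, RPM, log axis); the solid line marks equal levels and the dotted line a 2-fold higher level. miR-9 and miR-124 (large points) lie 8.01-fold and 6.12-fold above their medians, with several miRNAs of the brain-enriched list above the dotted line and most features along the solid line.

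miRNAs of the brain other than the members were taken from a list of 16, of which 12 passed the filter (mmu-mir-219b, mmu-mir-219c, mmu-mir-488 and mmu-mir-873a did not). The list, like the members, was chosen with results of these libraries known and is not independent evidence. In edgeR's quasi-likelihood test, 0 of the 12 were called higher and 0 lower in HFD-F0, beside 18 and 11 of all 738 features. At such shares a count of 0 among 12 says little about the list. In that test 0 of the 12 had an unadjusted p under 0.05, and the lowest Benjamini-Hochberg adjusted p was 0.469, for mmu-mir-132. DESeq2, run on all 10 libraries only, called 1 lower, mmu-mir-129, beside 10 of 738 features called lower over all. It gave 4 of the list an unadjusted p under 0.05 (mmu-mir-129, mmu-mir-132, mmu-mir-153 and mmu-mir-212) and a lowest adjusted p of 0.330. Leaving out CD-F0 replicate 1, 2, 3 or 5 led edgeR to call 2, 2, 3 and 1 of them lower (mmu-mir-219a each time, with mmu-mir-129, mmu-mir-153 or mmu-mir-212). The features called lower over all were then 13, 14, 16 and 22. The numbers of features tested in those fits are not given here, so no share can be read from them. Leaving out CD-F0 replicate 4 led edgeR to call 0 of the list lower, beside 5 of 751 features over all.

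The median log2 fold change of the 12 was -0.48, with 10 below 0 and 2 above, beside -0.03 over all 453 miRNA features. Without CD-F0 replicate 4 the median was 0.10, with 4 below 0 and 8 above, beside -0.03 over all 465 features then tested. CD-F0 replicate 4 was the highest library for 8 of the 12, and for 5 of them (mmu-mir-129, mmu-mir-132, mmu-mir-138, mmu-mir-153 and mmu-mir-219a) it was more than 2-fold above every other library. Over all 453 miRNA features these numbers were 47 and 17.

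Over all 10 libraries, mmu-mir-219a, known from oligodendrocyte maturation, followed miR-9 most closely. Without CD-F0 replicate 4 it was not among the 5 features nearest to miR-9. It had 1.28, 1.65, 1.93, 15.8 and 2.14 RPM in CD-F0 replicates 1 to 5 and 1.62 to 2.50 RPM in HFD-F0 (median 1.83 RPM). Its log2 fold change was -1.37 (SE 0.66, edgeR adjusted p 0.472) with all libraries and 0.07 (SE 0.27, adjusted p 0.953) without CD-F0 replicate 4.

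mmu-mir-138, found at neuronal synapses, had 16.3, 14.8, 12.8, 79.7 and 14.6 RPM in CD-F0 replicates 1 to 5 and 16.0 to 22.8 RPM in HFD-F0 (median 16.7 RPM). The change was -0.73 (SE 0.49, edgeR adjusted p 0.660), and 0.23 (SE 0.19, adjusted p 0.875) without CD-F0 replicate 4. Its sign thus turned when that library was left out.

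mmu-mir-132, which neuronal activity induces, had 52.8, 50.1, 65.8, 147 and 47.7 RPM in CD-F0 replicates 1 to 5 and 37.3 to 63.7 RPM in HFD-F0 (median 48.5 RPM). Its change was -0.70 (SE 0.32, edgeR adjusted p 0.469), and -0.24 (SE 0.20, adjusted p 0.902) without CD-F0 replicate 4. mmu-mir-129 had 19.1 RPM in CD-F0 replicate 4 and 1.14 to 3.57 RPM in the other 9 libraries. mmu-mir-153, named after its values were seen, had 21.8 RPM there and 2.71 to 9.52 RPM elsewhere.

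mmu-mir-212, from the same transcript cluster as mmu-mir-132 and named after its values were seen, had 15.7 RPM in CD-F0 replicate 4, 3.28-fold above the median of the other 9 libraries and 1.80-fold above the next. mmu-mir-128 had 293 RPM there, 1.88-fold above the next library and 2.51-fold above the median of 117 RPM in the other 9. The 3 miRNAs of the list with the highest mean level were mmu-mir-7a (832 RPM over all libraries), mmu-mir-7b (355 RPM) and mmu-mir-218 (245 RPM). CD-F0 replicate 4 was 1.33-fold above the median of the others for mmu-mir-7a, 1.37-fold for mmu-mir-7b and 1.61-fold for mmu-mir-218. Also named after their values were seen, mmu-mir-338, a glial miRNA, was below it at 0.833-fold, and mmu-mir-137 was highest in another library, HFD-F0 replicate 4, at 37.0 RPM, with 26.1 RPM in CD-F0 replicate 4.

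**Figure D4:**
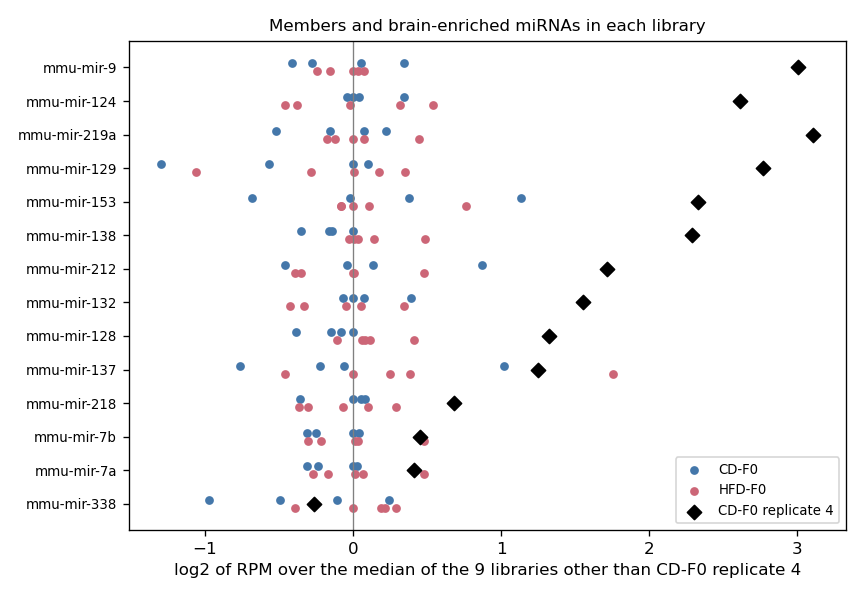
Level of the 2 families and the 12 tested brain-enriched miRNAs in each library, as log2 of RPM over the median of the 9 libraries other than CD-F0 replicate 4; circles are those 9 libraries by group and the diamond is CD-F0 replicate 4. The diamond is to the right of all circles for miR-9, miR-124 and 8 of the 12 listed miRNAs, and among the circles or to their left for mmu-mir-7a, mmu-mir-7b, mmu-mir-137 and mmu-mir-338.

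The markers listed for other cell types were not highest in CD-F0 replicate 4, and these lists do not cover every cell type. Of 6 epithelial miRNAs (the miR-200 family and miR-205), 6 of smooth and striated muscle (such as miR-143 and miR-1a) and 7 of blood and immune cells (such as miR-451a and miR-223), all passed the filter and 0 were highest in that library. Only 47 of all 453 miRNA features were highest there, so a count of 0 in lists this short says little about the markers. The epithelial sum was 4817 RPM there, in a range of 3969 to 6756 RPM in CD-F0 and 5520 to 9463 RPM in HFD-F0. The muscle sum was 21357 RPM, the lowest of CD-F0 (up to 29629 RPM), with 15887 to 36749 RPM in HFD-F0. The blood and immune sum was 3686 RPM, also the lowest of CD-F0 (up to 5534 RPM), with 3249 to 6033 RPM in HFD-F0. The sperm and testis sum was 17709 RPM, and 0 of its 6 miRNAs were highest there. CD-F0 replicate 4 was the lowest of the 10 libraries for 5 of the 6 muscle miRNAs and 4 of the 7 of blood and immune cells. It was also the lowest for 2 of the 6 of sperm and testis, and for 0 of the 6 epithelial ones. How many of all miRNA features were lowest in that library was not counted. These counts therefore have no share to be set against, and nothing about cell types is read from them. The part that other cells or the handling of the library have in the miR-9 and miR-124 values was not tested.

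Likeness between features was measured as Pearson's r of log2 CPM (counts scaled to the library size by edgeR) over the 10 libraries, as a description, since the points share CD-F0 replicate 4. The 5 features most like miR-9 were mmu-mir-219a (r = 0.970), mmu-mir-124 (r = 0.95), mmu-mir-132 (r = 0.939), mmu-mir-138 (r = 0.934) and mmu-mir-487b (r = 0.922). The 5 most like miR-124 were mmu-mir-9 (r = 0.95), mmu-mir-132 (r = 0.939), mmu-mir-219a (r = 0.933), mmu-mir-138 (r = 0.928) and mmu-mir-128 (r = 0.856). After the group means were subtracted, r between the families was 0.944. The nearest 5 were then mmu-mir-219a, mmu-mir-138, mmu-mir-124, mmu-mir-132 and mmu-mir-128 for miR-9, and mmu-mir-138, mmu-mir-9, mmu-mir-132, mmu-mir-219a and mmu-mir-128 for miR-124.

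Without CD-F0 replicate 4, r between miR-9 and miR-124 over 9 libraries was 0.155. The 5 features nearest to each family were then all different ones, led by mmu-mir-151 for miR-9 (r = 0.872) and mmu-mir-6420 for miR-124 (r = 0.900), and 0 of them were in the brain-enriched list. The likeness of the 2 families across these libraries therefore rested on 1 library.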

How the data were processed

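Small RNA of 18 to 30 nt was recovered from a gel and read on a DNBSEQ machine, with unique molecular identifiers (UMIs) in the 3′ adapter. The authors ran SPORTS, which aligns clean reads with Bowtie at up to 1 mismatch, and the submitters' processing notes name the build mm10; versions, and whether UMIs were collapsed, are not given in the sources used here. The deposited values are estimated counts per hairpin or other RNA class, with a read divided among the sequences it matches.

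Here genome-matched and unmatched reads were added, and hairpins that differ only in a copy number were summed, which left 1045 miRNA features of 1379. tRNA reads were split into features that do not overlap. For tests across features the estimated counts were rounded, filtered with filterByExpr (738 features left), scaled by TMM and tested with edgeR 4.0.16 (glmQLFit, glmQLFTest; R 4.3.3), without covariates. Calls used p of at most 0.05 and an absolute log2 fold change of at least 1, as in the study's methods, and adjusted p-values are Benjamini-Hochberg over all features. SEs are the absolute log2 fold change over the square root of F. Likeness used log2 CPM with a prior count of 2. The alternatives were other filters, DESeq2 1.42.0, scaling to clean reads, hairpins apart, genome-matched reads only, a replicate block and leaving out each library. Only the edgeR fit was run on simulated counts, with a log2 fold change of 2 and no outlying library, so other steps were not tested in this way.

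The genes named are the members, the brain-enriched miRNAs past the thresholds, the 3 of that list with the highest mean and the 5 features most like each family; others are said to be named after their values were seen. The members and lists were chosen with earlier results of these data known. Hairpin positions come from GENCODE M21 (GRCm38), the assembly that mm10 also names, and sequences from RefSeq. The numbers of reads set the precision, given as Wilson 95% intervals, which cover counting error only because PCR copies are not independent molecules.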

Additional observations from a re-analysis of the deposited data

Results flagged for a closer look

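In groups of 5, a sample counts as far from the others where its gap to the nearest, over the range of the group, is above 0.71. For normally distributed values, chance flags about 1 in 20 groups. Here 16 of 58 were flagged, 13 of them for a high value in CD-F0 replicate 4. These 13 are not independent, since they share that library and copies share reads. The families and the brain-enriched list were also chosen with results of these data known, so the number of flags cannot be set against that rate. The ratio was 0.929 for the miR-9 family and 0.942 for the miR-124 family. By hairpin it was 0.929 for mmu-mir-9-1, 0.929 for mmu-mir-9-2, 0.928 for mmu-mir-9-3, 0.942 for mmu-mir-124a-1, 0.943 for mmu-mir-124a-2 and 0.942 for mmu-mir-124a-3. Among brain-enriched miRNAs it was 0.947 for mmu-mir-138, 0.941 for mmu-mir-219a, 0.896 for mmu-mir-129, 0.865 for mmu-mir-128 and 0.817 for mmu-mir-132.

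The other 3 lay in HFD-F0. mmu-mir-137 was high in replicate 4 (0.78) and mmu-mir-153 was high in replicate 1 (0.826), and clean reads were low in replicate 5 (0.914), at 29558751.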

How the results depend on the processing

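Under the alternatives, 18 values moved. The other 111 differed from the reported value by less than 1 SD between replicates (counts, by at most 1.5 times), a wide margin here because CD-F0 replicate 4 sets the SD. None changed the sign of a family's log2 fold change. Leaving out each library gave -1.64 to -0.066 for miR-9 and -1.31 to -0.11 for miR-124, and ratios of group means of 0.346 to 0.993 and 0.440 to 0.971; the upper ends (-0.066, -0.11, 0.993 and 0.971) are without CD-F0 replicate 4, which also lowered the likeness of the families to r = 0.155, an alternative chosen after seeing the data. The other alternatives gave log2 fold changes of -1.45 to -0.56 for miR-9 and -1.16 to -0.58 for miR-124. DESeq2 gave -1.44 and -1.15 and no p for either family, among 9 of 738 features without one, so it could call neither family.

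Features called higher and lower numbered 18 and 11, against 39 and 53 with no filter on low counts. Leaving out each library gave 13 to 25 higher (highest without HFD-F0 replicate 1) and 5 to 22 lower (5 without CD-F0 replicate 4, 19 without HFD-F0 replicate 1, 22 without CD-F0 replicate 5). With the replicate block 6 were called lower, and the families' log2 fold changes were -0.56 and -0.58, within 1 SD of the reported values but under the threshold of 1. The labels give both groups the same replicate numbers, and the correlations of same-numbered deviations were 0.36, -0.10, 0.24, -0.18 and -0.13. These were not compared with correlations between samples of different numbers, so they cannot decide whether the numbers stand for a pairing. Brain-enriched miRNAs called lower numbered 0 in edgeR, 1 with DESeq2 (mmu-mir-129), 2 with no filter (mmu-mir-219a and mmu-mir-873a), 1 with hairpins apart (mmu-mir-219a-2), and 0 to 3 on leaving out each library. Over all features, DESeq2 called 10 lower, the fit with no filter 53 and that with hairpins apart 13.

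No miRNA shared a seed with miR-9 in the table used and no related hairpin had reads. That table held no miR-124 sequence, so seeds shared with miR-124 were not looked for. The planned comparison with such miRNAs therefore gave no value. With 5 samples per group, 1 library set the spread of both families. Copies could not be measured apart, and arms and read lengths were not analysed here.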
